A study of Mus musculus with 26 samples.

Results

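The 10 genes described here encode the muscle nicotinic acetylcholine receptor and the proteins that gather it under the nerve terminal. The receptor subunits are Chrna1 (alpha1), Chrnb1 (beta1), Chrnd (delta), Chrne (epsilon) and Chrng (gamma), while the clustering proteins are encoded by Musk, Rapsn, Dok7, Lrp4 and Agrn. They were chosen by name. The Ensembl identifiers of the count files were mapped to symbols with GENCODE M21, which placed all 10 among the 55341 genes of each library. The RNA-Seq data comprise 26 libraries of C2C12 cells, mouse myoblasts that stop dividing in differentiation medium and fuse to form myotubes. For the knockdown, 18 libraries came from cells transfected with siCtrl, a control siRNA, or with siSMYD3#1 or siSMYD3#2, both designed against Smyd3, which encodes a lysine methyltransferase. Growing cells received the siRNAs first, and they were given again 24 h later, when differentiation was started. Cells were collected at 0 h, when they were confluent, or after 24 h in differentiation medium, with 3 libraries for each siRNA and time. For the overexpression, 8 libraries came from SMYD3 CL5, a single clone that carries a tagged SMYD3 cDNA in the retroviral vector pREV, and from a line carrying the empty vector pREV, with 2 libraries for each line and time. Because SMYD3 CL5 is 1 clone, what the construct does cannot be told apart in these libraries from what sets the clone apart. Outside the RNA-Seq data, the study reported raised muscle markers in another clone, SMYD3 CL3. It also reported that siSMYD3 reversed marker expression in overexpressing cells.

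In innervated muscle, agrin from the nerve binds the receptor LRP4 on the myofibre. LRP4 activates the receptor tyrosine kinase MuSK with the help of the adaptor DOK7, and rapsyn then packs acetylcholine receptors into the postsynaptic membrane. The embryonic receptor is built from alpha, beta, delta and gamma subunits, and the epsilon subunit takes the place of gamma in adult muscle. Cultured myotubes without nerve make the embryonic form, and the subunit genes are known targets of the myogenic basic helix-loop-helix factors, which bind E-boxes (CANNTG).

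In each group of the siRNA experiment 2 libraries were extracted with NucleoSpin columns and 1 with TRIzol, and all stable line libraries were extracted with TRIzol. The study's sample list gives passage 14 for the NucleoSpin libraries and passage 11 for the TRIzol libraries of the siRNA experiment, so extraction and passage cannot be told apart. Total counts ran from 14315193 to 60398170 in the siRNA libraries and from 21124675 to 67853386 in the stable lines. Levels are CPM, that is counts scaled to a common library size, after TMM scaling, which was done separately for the 2 experiments. Levels are therefore not compared between them. The myoblast markers Myod1, Myf5, Des, Cdh15 and Pax7 were above 0 in every library, with a summed level of 217 to 1910 CPM. Markers of motor neurons summed to at most 2.43 CPM, of endothelium to 2.59, of adipocytes to 0.126, of macrophages to 6.75, of Schwann cells to 14.4 and of osteoblasts to 92.7 CPM, the last mostly Runx2. Slc18a3, Adgre1 and Lep were at 0 in every library. The study's methods call the libraries of a group biological replicates, while the labels do not name separate cultures, and p-values measure the spread between these libraries. Because RNA was measured in bulk, fewer cells that express a gene and less RNA per cell cannot be told apart.

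Values of the siRNA libraries are given with the 2 NucleoSpin libraries first and the TRIzol library last. Smyd3 itself was at 20.5, 19.5 and 21.6 CPM with siCtrl at 0 h, at 19.3, 16.9 and 19 CPM in the libraries labelled siSMYD3#1 and at 7.56, 8.93 and 6.37 CPM with siSMYD3#2. At 24 h it was at 17.8, 19.9 and 20.7 CPM with siCtrl, at 15.2, 15.1 and 19.3 CPM in the libraries labelled siSMYD3#1 and at 5.46, 5.37 and 9.65 CPM with siSMYD3#2. Smyd3 was 2.84-fold lower with siSMYD3#2 than with siCtrl at 24 h (edgeR quasi-likelihood test, adjusted p = 5.06e-05). In the libraries labelled siSMYD3#1 its RNA level was 1.18-fold lower at 24 h, which did not pass the test (adjusted p = 0.414). A lower Smyd3 RNA level was therefore not shown in these libraries. Within these RNA-Seq data, every direction given for siSMYD3#1 rests on the label. The study also probed SMYD3 protein by western blot in siSMYD3#1 cells and Smyd3 RNA by qPCR after siRNA transfection. Those measurements are not part of these data. In the stable lines Smyd3 was at 16.9 and 27.1 CPM in SMYD3 CL5 and at 19.2 and 16.7 CPM in the vector line at 0 h (adjusted p = 0.593), with an adjusted p of 0.671 at 24 h. Whether reads from the tagged cDNA were counted under the mouse gene is not given in the sources used here.

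Upstream sequences are shown for 4 receptor subunit genes, since the gamma and epsilon subunits are alternatives in the receptor and the alpha and beta subunits are common to both forms. The 250 bases before the transcription start were read from RefSeq (GRCm38.p6), which held windows for 7 of the 10 genes. Any base of a GENCODE exon was left out. Sequences are written 5′ to 3′ in the direction of the gene, and capitals mark each CANNTG, which reads the same on both strands.
Chrng, chr1:87205561-87205809, plus strand: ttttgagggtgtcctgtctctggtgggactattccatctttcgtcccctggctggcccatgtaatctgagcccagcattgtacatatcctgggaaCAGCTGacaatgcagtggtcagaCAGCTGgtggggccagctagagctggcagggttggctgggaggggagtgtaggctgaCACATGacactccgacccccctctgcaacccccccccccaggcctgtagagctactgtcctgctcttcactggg
Chrna1, chr2:73580339-73580588, minus strand: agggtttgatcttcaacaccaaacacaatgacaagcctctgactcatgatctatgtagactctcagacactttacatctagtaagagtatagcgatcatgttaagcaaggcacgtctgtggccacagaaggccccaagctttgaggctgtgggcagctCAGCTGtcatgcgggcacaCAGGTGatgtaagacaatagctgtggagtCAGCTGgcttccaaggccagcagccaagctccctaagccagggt
Chrnb1, chr11:69795944-69796067, minus strand: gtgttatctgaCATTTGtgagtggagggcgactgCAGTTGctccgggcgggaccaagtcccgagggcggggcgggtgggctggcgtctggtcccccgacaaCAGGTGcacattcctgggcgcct
Chrne, chr11:70619217-70619444, minus strand: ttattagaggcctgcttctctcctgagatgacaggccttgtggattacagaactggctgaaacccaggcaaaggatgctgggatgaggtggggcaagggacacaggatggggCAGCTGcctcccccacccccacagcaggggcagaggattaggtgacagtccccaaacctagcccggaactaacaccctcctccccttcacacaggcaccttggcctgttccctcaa

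Each of Chrng, Chrna1 and Chrnb1 held 3 E-boxes in these windows, and Chrne held 1. At least 1 E-box was found in 66.2% of the 32817 RefSeq promoter windows searched over the same 250 bases, and at least 3 in 12.2%. The E-box CAGCTG occurred 2 times upstream of Chrng, starting 155 and 132 bases before the start, and 2 times upstream of Chrna1, at 92 and 44 bases, whereas 1.26% of all windows held 2 or more. Chrnb1 held none of that form, and its E-boxes began 119, 96 and 29 bases before the start. Chrne held 1 CAGCTG, 138 bases before the start, and 1 CCGGAA, the N-box of synaptic genes that ETS factors bind, which occurred on either strand in 12% of all windows. Among the clustering genes Musk held 3 E-boxes, the upstream window of Dok7 held 1 and its other window 0, and the 2 windows of Agrn held 0 and 1. Chrng itself lies at chr1:87204657-87212694 on the plus strand of GRCm38, next to Chrnd at chr1:87190607-87200070. The RefSeq start used for its window lies inside the GENCODE gene model. These matches describe the letters of the windows and were not tested for binding.

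Ordered by level per kb of exon with siCtrl at 24 h, the alpha subunit Chrna1 came first, with 166 ± 22.1 CPM per kb (SD, n = 3). Chrnd followed with 68.7 ± 38.1, Chrnb1 with 34.7 ± 2.22, Chrng with 27 ± 9.14 and Lrp4 with 12.6 ± 6.26 CPM per kb. Musk was at 7.44 ± 0.654, Agrn at 7.36 ± 1.21 and Dok7 at 4.34 ± 1.54 CPM per kb. The libraries of the neighbouring genes Chrnd and Chrnb1, Chrnb1 and Chrng, Chrng and Lrp4, and Musk and Agrn overlapped, whereas Chrna1 stood above all others. With siCtrl at 0 h Chrng stood at rank 8, with 1.35 ± 0.704 CPM per kb, and its libraries overlapped those of Dok7.

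Chrne and Rapsn were at or close to the detection limit. Chrne held 0 counts in 16 of 18 siRNA libraries and at most 3 counts in any of the 26 libraries. No fold is given for it and any difference was not detectable at this depth. Rapsn held 0 to 4 counts in the siRNA libraries, with 3 or fewer in 16 of 18, and 5 to 22 counts in the stable lines. A count of 0 allows up to 3 counts. That came to 0.0497 to 0.21 CPM in the siRNA libraries and to 0.0442 to 0.142 CPM in the stable lines. This limit covers counting error only. Rapsn shares 4 exon bases with the antisense gene Gm13778, the one overlap found for the 10 genes. The strand setting of the counting is not given in the sources used here. Both genes were removed by the filter on low counts in the siRNA fit, which left 8 of the 10 genes tested. Rapsn returned in the stable line fit, where 9 were tested.

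**Figure D1:**
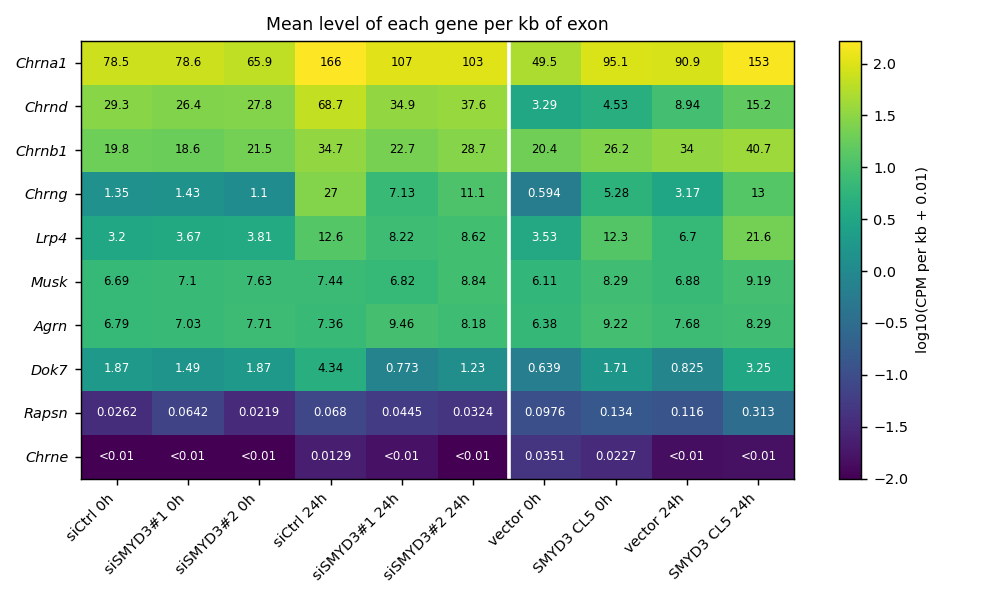
Mean level of each of the 10 genes (rows) in each group (columns), in CPM per kb of exon, with colour on a log10 scale. The white line separates the siRNA libraries (n = 3 per group) from the stable lines (n = 2), which were scaled separately. Chrna1 has the highest mean in every group, Chrng rises from 1.35 to 27 between 0 h and 24 h with siCtrl, and Rapsn and Chrne stay at the bottom, with 0.313 or less.

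The first comparison asks how these genes changed over the first 24 h of differentiation in control cells. With siCtrl, Chrng, Lrp4, Chrnd and Chrna1 were higher at 24 h than at 0 h, which is 4 of the 8 genes tested, beside 29.4% of all 15820 genes called in either direction (edgeR, adjusted p under 0.01). The median log2 fold change of the 8 was 1.27, against 0.03 over all genes. With the extraction effect fitted separately for 0 h and 24 h, a fit chosen after the data were seen, Chrnb1 and Dok7 were also higher, which made 6 of 8 beside 37.1% of all genes.

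Chrng, the gamma subunit of the embryonic receptor, showed the largest change. Its level at 0 h was 6.18 and 8.25 CPM in the NucleoSpin libraries and 2.47 CPM in the TRIzol library, and at 24 h it was 128, 140 and 69.1 CPM. All 24 h libraries lay above all 0 h libraries. Here and below, in both experiments, the share of all genes whose groups did not overlap is not given. A lack of overlap therefore only describes the libraries of the gene. The fold change was 20.2 (log2 4.33 ± 0.176 SE, adjusted p = 1.93e-11). It was 4.22 on the log2 scale between the NucleoSpin means and 4.81 between the TRIzol libraries.

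Lrp4, the receptor for agrin, was at 26.2, 30.7 and 44.1 CPM at 0 h and at 90.4, 98.5 and 208 CPM at 24 h, the TRIzol library being the highest at each time. The groups did not overlap, and the level rose 3.73-fold (log2 1.9 ± 0.146, adjusted p = 2.66e-08). Chrna1, which carries most of the acetylcholine binding site, rose from 415, 468 and 150 CPM to 738, 819 and 626 CPM, a 2.29-fold change (log2 1.2 ± 0.275, adjusted p = 0.00317), with no overlap between the times. Chrnd was at 128, 151 and 9.61 CPM at 0 h and at 296, 300 and 81.3 CPM at 24 h, again with the TRIzol library last, and rose 3.24-fold (log2 1.7 ± 0.409, adjusted p = 0.00517). Its groups overlapped, because the TRIzol library at 24 h was below the NucleoSpin libraries at 0 h, while within each method the 24 h level was higher (log2 1.1 for NucleoSpin and 3.08 for TRIzol). The calls of Chrna1 and Chrnd were lost when the siCtrl TRIzol library at 0 h was left out (log2 0.89 and 1.33, adjusted p = 0.0197 and 0.0281). They were also lost without that at 24 h (0.99 and 1.27, adjusted p = 0.022 and 0.0283) or without a siCtrl NucleoSpin library at 0 h (1.25 and 1.75, adjusted p = 0.0119 and 0.0194). Leaving out any of 3 siSMYD3#1 libraries also ended the call of Chrnd, with adjusted p-values of 0.0101 to 0.0106.

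The beta subunit Chrnb1 was at 57.2, 61.9 and 31.5 CPM at 0 h and at 81.8, 93 and 88.6 CPM at 24 h, without overlap, but its difference missed the threshold (log2 0.85 ± 0.238, adjusted p = 0.0103). It passed when any of 3 TRIzol libraries of the siSMYD3 groups was left out, with adjusted p-values of 0.00694 to 0.00792. Dok7, the activator of MuSK inside the cell, was at 10.7, 11.7 and 1.62 CPM at 0 h and at 21.8, 22.9 and 11 CPM at 24 h (log2 1.34 ± 0.503, adjusted p = 0.0468). Musk, the kinase itself, was at 27.8, 31.6 and 16.5 CPM and then at 30.2, 28.7 and 25.4 CPM. Agrn was at 64.9, 70.1 and 54.2 CPM and then at 75.2, 74.4 and 55.3 CPM. Neither Musk (log2 0.2 ± 0.131, adjusted p = 0.232) nor Agrn (log2 0.11 ± 0.112, adjusted p = 0.469) passed the test, and the libraries of the times overlapped for both.

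The ratio between subunits was described next, since a receptor needs all of them. Per kb of exon, Chrna1 was 54 to 63.5 times Chrng in the siCtrl libraries at 0 h and 5.47 to 8.61 times Chrng at 24 h. The ratio of Chrna1 to Chrnb1 was 2.74 to 4.39 at 0 h and 4.09 to 5.2 at 24 h, and those ranges overlapped. The ratio of Chrna1 to Chrnd differed by method, at 2.32 and 2.43 in the NucleoSpin libraries and 11.7 in the TRIzol library at 0 h.

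**Figure D2:**
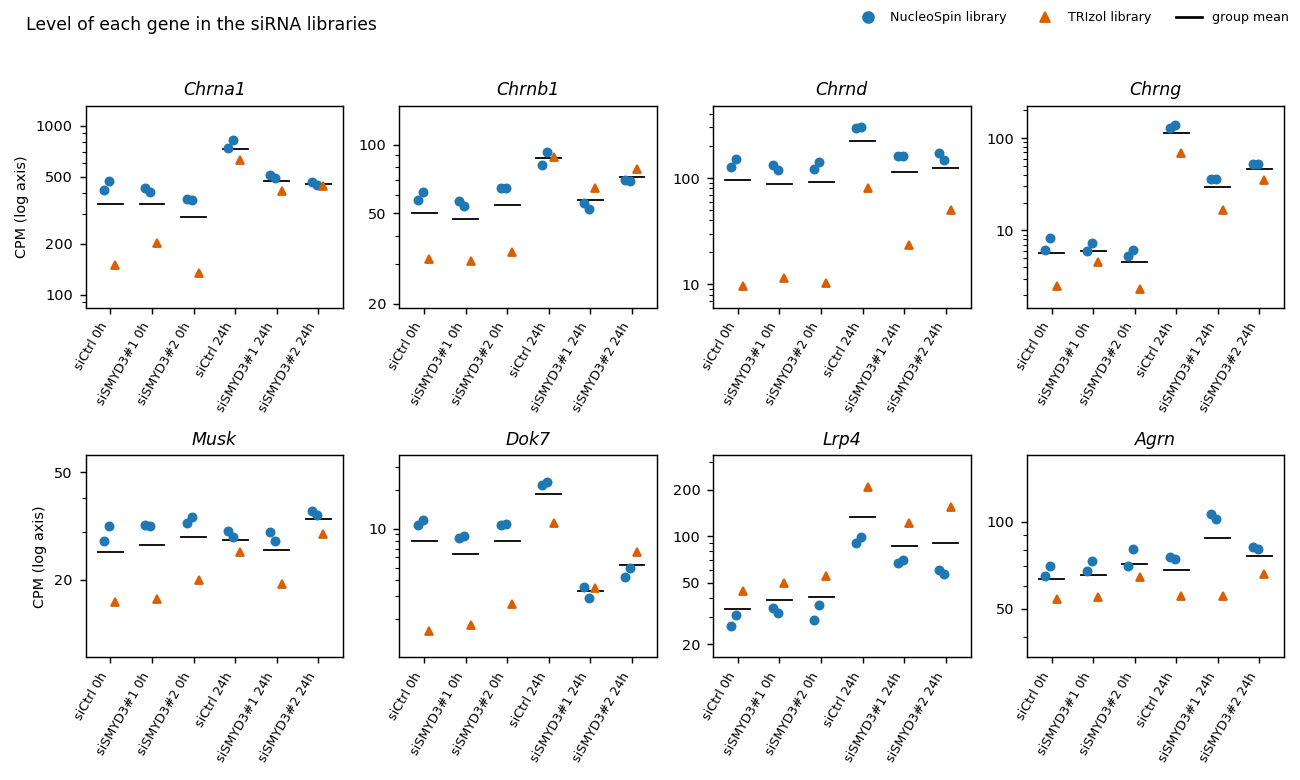
Level of the 8 tested genes in the 18 siRNA libraries, in CPM on log axes, by siRNA and time. Each point is a library (circles NucleoSpin, triangles TRIzol) and each line a group mean. Chrng at 24 h runs from 69.1 to 140 CPM with siCtrl and from 16.6 to 36.4 CPM in the libraries labelled siSMYD3#1, while for Chrnd the TRIzol library is the lowest in every group.

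In cells transfected against Smyd3, Chrng and Lrp4 were again higher at 24 h than at 0 h. In the libraries labelled siSMYD3#1, Chrng, Lrp4 and Agrn were higher at 24 h, 3 of 8 beside 25.4% of all genes. With siSMYD3#2 Chrng and Lrp4 were higher, 2 of 8 beside 19.0%. Chrng rose 4.79-fold (log2 2.26 ± 0.172, adjusted p = 9.21e-08) in the former. It rose 10.6-fold (log2 3.41 ± 0.178, adjusted p = 1.43e-09) in the latter. Lrp4 rose 2.19-fold (adjusted p = 1.25e-05) and 2.13-fold (adjusted p = 2.95e-05). Agrn, which encodes agrin, was at 67.6, 73.3 and 54.9 CPM at 0 h and at 106, 102 and 55.3 CPM at 24 h in the libraries labelled siSMYD3#1 (log2 0.4 ± 0.112, adjusted p = 0.00939). The log2 ratio of 24 h to 0 h was 0.56 between the NucleoSpin means and 0.01 between the TRIzol libraries. The call held in 3 of the 18 fits that left out a library, with log2 0.29 to 0.41 and adjusted p-values of 0.0105 to 0.0735 where it was lost. It was also lost with the study's replicate number as a block (log2 0.40, adjusted p = 0.0118), with all 26 libraries in 1 fit (0.39, adjusted p = 0.158) and without the extraction term (0.43, adjusted p = 0.197). With the extraction effect fitted per time, Chrna1, Chrnb1 and Chrnd were also higher at 24 h for both siRNAs. That made 6 of 8 beside 33.2% for siSMYD3#1 and 5 of 8 beside 27.4% for siSMYD3#2. Between the times this fit weighted the methods as in the libraries, 2 NucleoSpin to 1 TRIzol. In the NucleoSpin libraries alone none of Chrna1, Chrnb1 and Chrnd passed for either siRNA. Their log2 ratios for siSMYD3#1, in that order, were 0.26, -0.04 and 0.36 between NucleoSpin means. Between TRIzol libraries they were 1.03, 1.07 and 1.04. For siSMYD3#2 they were 0.31, 0.11 and 0.28 against 1.72, 1.21 and 2.3.

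Dok7 ran differently by extraction method in these cells. In the libraries labelled siSMYD3#1 it went from 8.52 and 8.83 CPM at 0 h to 3.52 and 2.9 CPM at 24 h with NucleoSpin, and from 1.79 to 3.49 CPM with TRIzol. With siSMYD3#2 it went from 10.6 and 10.8 CPM to 4.24 and 4.96 CPM with NucleoSpin, and from 2.61 to 6.59 CPM with TRIzol. The log2 ratio of 24 h to 0 h was -1.43 and -1.21 between the NucleoSpin means and 0.96 and 1.34 between the TRIzol libraries, so no common direction can be given.

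At 0 h, before differentiation medium, none of the 8 genes passed the test between either siRNA and siCtrl in edgeR, beside 1.43% of all genes called for siSMYD3#1 and 0.531% for siSMYD3#2. At an unadjusted p under 0.05 the count was also 0 for both, and DESeq2 called 0 for both. The log2 differences ran from -0.32 (Dok7) to 0.2 (Lrp4) for siSMYD3#1 and from -0.31 (Chrng) to 0.22 (Lrp4) for siSMYD3#2.

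The next comparison asks whether the genes were at a different level at 24 h after transfection against Smyd3. Chrng was lower with both siRNAs and was the only one of the 8 genes called in the fit with 1 extraction effect, beside 5.85% of all genes called for siSMYD3#1 and 3.70% for siSMYD3#2. The median log2 difference of the 8 was -0.61 and -0.62, against 0 over all genes. With the extraction effect fitted per time, Chrna1, Chrnd, Chrng, Dok7 and Lrp4 were lower with both siRNAs and Chrnb1 with siSMYD3#1, which made 6 of 8 beside 10.2% of all genes for siSMYD3#1 and 5 of 8 beside 7.89% for siSMYD3#2. In the NucleoSpin libraries alone the same 6 and 5 genes were lower, beside 11.6% and 8.38% of 15222 genes called, and Agrn was higher in those labelled siSMYD3#1. The 2 comparisons share the siCtrl libraries.

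Chrng was at 36.4 and 36.2 CPM in the NucleoSpin libraries labelled siSMYD3#1 and at 16.6 CPM in the TRIzol library, against 128, 140 and 69.1 CPM with siCtrl. It was 3.84-fold lower (log2 -1.94 ± 0.156, adjusted p = 4.27e-07), and the libraries did not overlap. With siSMYD3#2 it was at 51.9, 52 and 34.7 CPM and 2.35-fold lower (log2 -1.23 ± 0.153, adjusted p = 0.000103), again without overlap. Within extraction methods the log2 ratio to siCtrl was -1.89 and -2.06 for siSMYD3#1 and -1.37 and -0.99 for siSMYD3#2, NucleoSpin first. Both calls held in all 18 fits that left out a library, with adjusted p-values of at most 1.57e-05 and 0.00231. Without the extraction term neither passed (adjusted p = 0.0372 and 0.237). With all 26 libraries in 1 fit that of siSMYD3#2 did not (log2 -1.23, adjusted p = 0.0412).

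Dok7 had the largest estimated differences among the other genes. At 24 h it was at 3.52, 2.9 and 3.49 CPM in the libraries labelled siSMYD3#1 and at 4.24, 4.96 and 6.59 CPM with siSMYD3#2, against 21.8, 22.9 and 11 CPM with siCtrl. All libraries of both siRNAs lay below those of siCtrl. The fit with 1 extraction effect gave log2 -2.31 ± 0.543 (adjusted p = 0.0141) and -1.58 ± 0.528 (adjusted p = 0.0845). Fitted per time the values were -2.42 ± 0.23 (adjusted p = 6.11e-07) and -1.74 ± 0.223 (adjusted p = 4.09e-05). For siSMYD3#1 it passed in the first fit when the siCtrl TRIzol library at 0 h (adjusted p = 0.00583), the siSMYD3#1 TRIzol library at 24 h (0.00992) or the siSMYD3#2 TRIzol library at 24 h (0.00346) was left out. For siSMYD3#2 it passed when the last of these was left out (adjusted p = 0.00947).

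Lrp4 was at 67.3, 70.3 and 121 CPM in the libraries labelled siSMYD3#1 and at 60, 57 and 155 CPM with siSMYD3#2, against 90.4, 98.5 and 208 CPM with siCtrl. The groups overlapped through the TRIzol libraries, while within each method siCtrl was the highest. Its log2 difference was -0.57 ± 0.141 (adjusted p = 0.0121) and -0.58 ± 0.141 (adjusted p = 0.0143). Without the siSMYD3#2 TRIzol library at 24 h it passed for both (-0.58, adjusted p = 0.00289, and -0.83, adjusted p = 0.00108). Chrnd, the delta subunit, was at 161, 160 and 23.6 CPM in the libraries labelled siSMYD3#1 and at 172, 148 and 50.5 CPM with siSMYD3#2, against 296, 300 and 81.3 CPM. Its values were again ordered by method first, and the log2 difference was -1.25 ± 0.402 (adjusted p = 0.0691) and -0.81 ± 0.398 (adjusted p = 0.263).

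Chrna1 was at 507, 487 and 412 CPM in the libraries labelled siSMYD3#1 and at 464, 445 and 441 CPM with siSMYD3#2, all below the 626 to 819 CPM of siCtrl. The log2 differences were -0.63 ± 0.27 (adjusted p = 0.17) and -0.66 ± 0.271 (adjusted p = 0.163). Chrnb1 was at 55.8, 52.1 and 64.7 CPM and at 69.9, 69.4 and 78.5 CPM, below the 81.8 to 93 CPM of siCtrl. The differences were -0.59 ± 0.237 (adjusted p = 0.134) and -0.27 ± 0.236 (adjusted p = 0.567). Neither subunit passed the test with 1 extraction effect. The groups of both did not overlap, which is a description, since the share of all genes without overlap is not given. Musk was at 30.1, 27.9 and 19.3 CPM and at 36, 34.7 and 29.5 CPM, against 28.7 to 30.2 CPM in the NucleoSpin and 25.4 CPM in the TRIzol siCtrl libraries. Its log2 differences were -0.16 ± 0.132 and 0.24 ± 0.132 (adjusted p = 0.525 and 0.299). Agrn was at 106, 102 and 55.3 CPM and at 81.6, 80.4 and 66 CPM. Its log2 differences were 0.34 ± 0.113 and 0.16 ± 0.113 (adjusted p = 0.0631 and 0.44). Agrn passed for siSMYD3#1 when its TRIzol library at 24 h was left out (log2 0.51, adjusted p = 0.000473).

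**Figure D3:**
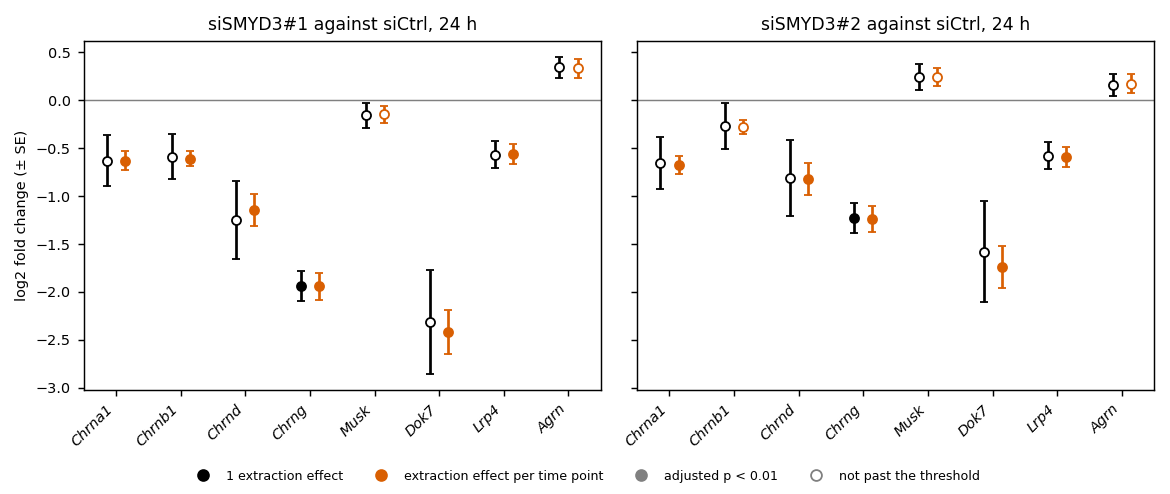
Log2 fold change against siCtrl at 24 h for the 8 tested genes, for siSMYD3#1 (left) and siSMYD3#2 (right). Points are fitted values and bars are standard errors, black with 1 extraction effect and orange with an extraction effect per time, and filled points have an adjusted p under 0.01. The estimates differ little between the fits, whereas the standard error of Dok7 for siSMYD3#1 is 0.543 in the first and 0.23 in the second.

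The effects of the 2 siRNAs were compared with each other at 24 h. Chrng was lower in the libraries labelled siSMYD3#1 than with siSMYD3#2 (log2 -0.71 ± 0.154, adjusted p = 0.00769), 1 of 8 genes beside 3.36% of all genes. This call held in 6 of the 18 fits that left out a library, and among these fits the highest adjusted p was 0.0524, without the siSMYD3#2 TRIzol library at 24 h (log2 -0.53). The call was also lost with all 26 libraries in 1 fit (log2 -0.71, adjusted p = 0.319) and without the extraction term (log2 -0.64, adjusted p = 0.752). With the extraction effect per time 3 of 8 genes were lower, Chrng, Chrnb1 (log2 -0.34 ± 0.0769, adjusted p = 0.00516) and Musk (log2 -0.39 ± 0.0923, adjusted p = 0.00617), beside 7.46% of all genes. The change from 0 h to 24 h was also compared with that of siCtrl by an interaction term. The rise of Chrng was smaller in the libraries labelled siSMYD3#1, by 2.07 ± 0.236 on the log2 scale (adjusted p = 0.000245), 1 of 8 genes beside 0.215% of all genes. It did not pass without the extraction term (adjusted p = 0.984) or with all 26 libraries in 1 fit (log2 -2.10, adjusted p = 0.0872). For siSMYD3#2 none of the 8 passed in edgeR, beside 0.0190% of all genes, although 3 had an unadjusted p under 0.05, and DESeq2 called 0. The nearest were Lrp4 (log2 -0.81 ± 0.201, adjusted p = 0.0959) and Chrng (log2 -0.93 ± 0.236, adjusted p = 0.103), and Lrp4 passed without the siSMYD3#2 TRIzol library at 24 h (log2 -1.07, adjusted p = 0.00852). With the extraction effect per time, the log2 change was lower than with siCtrl for 4 of 8 genes in the libraries labelled siSMYD3#1. These were Chrna1, Chrng, Dok7 and Lrp4, beside 0.695% of all genes. With siSMYD3#2 the change was lower for Dok7 and Lrp4, 2 of 8 beside 0.316%. Dok7 itself did not rise in this edgeR fit. Its log2 change was -0.59 ± 0.245 (adjusted p = 0.0563) for siSMYD3#1 and -0.26 ± 0.234 (adjusted p = 0.399) for siSMYD3#2. At 24 h Chrna1 per kb was 12.8 to 23.6 times Chrng in the libraries labelled siSMYD3#1 and 8.16 to 12.1 times with siSMYD3#2, against 5.47 to 8.61 times with siCtrl.

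The libraries also differed by extraction method. Between TRIzol and NucleoSpin, a comparison added after the data were seen, 1 of 8 genes was higher in TRIzol and 5 were lower, beside 51.3% of all genes called. Lrp4 was the higher one (1.87-fold, adjusted p = 5.52e-08). Chrnd was 6.76-fold lower (adjusted p = 3.19e-06), Chrng 1.94-fold, Chrna1 1.66-fold, Musk 1.5-fold and Agrn 1.34-fold lower. The gap itself differed between the times for 5 of 8 genes, beside 10.3% of all genes. Without the siSMYD3#1 TRIzol library at 0 h Chrna1 was not called (log2 -0.65, adjusted p = 0.0137). Dok7 was called without any of 3 libraries at 24 h, with adjusted p-values of 0.000805 to 0.00875. For Chrnd the log2 gap was -3.66 at 0 h and -2.07 at 24 h (difference 1.59 ± 0.22, adjusted p = 0.000136). It was, for Dok7, -2.36 and -0.2 (2.16 ± 0.298, adjusted p = 4.68e-05). For Chrna1 it was -1.34 and -0.21 (1.13 ± 0.117, adjusted p = 8.62e-07) and for Chrnb1 -0.9 and 0.15 (1.05 ± 0.0946, adjusted p = 1.6e-07). Musk had a smaller difference (0.48 ± 0.113, adjusted p = 0.00467), and for Chrng (0.2 ± 0.207, adjusted p = 0.554) the difference did not pass. With siCtrl the NucleoSpin mean of Chrnd was 14.5 times the TRIzol level at 0 h and 3.67 times at 24 h. The part of passage or RNA handling in these gaps was not tested.

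**Figure D4:**
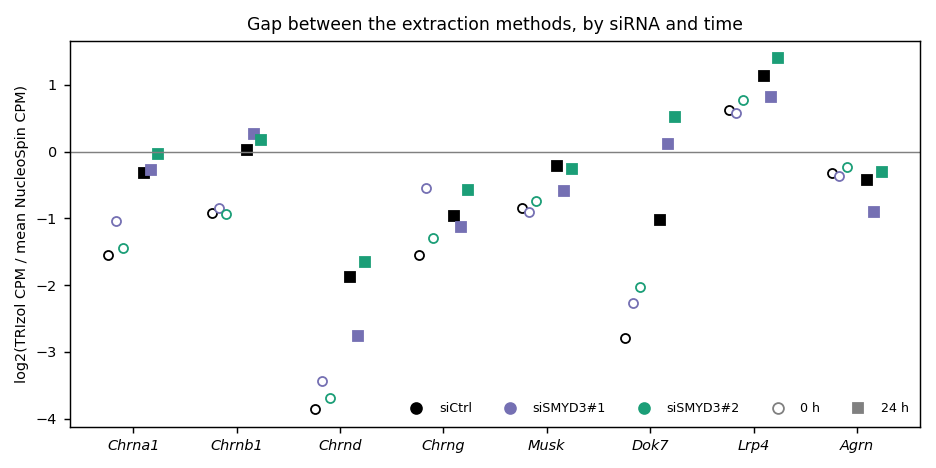
Log2 ratio of the TRIzol library to the mean of the 2 NucleoSpin libraries for each gene, by siRNA (colour) and time (open circles 0 h, filled squares 24 h). The horizontal line marks equal levels. Chrnd lies lowest, at -3.86 with siCtrl at 0 h, Lrp4 lies above the line at both times, and Dok7 moves from -2.79 at 0 h to -1.03 at 24 h with siCtrl.

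In the stable lines, where SMYD3 CL5 was compared with the empty vector, Chrng, Dok7 and Lrp4 had the largest estimated differences at both times. None of the 9 genes tested passed the test, beside 1.07% of 17835 genes called at 0 h and 0.964% at 24 h. At an unadjusted p under 0.05 the count was 4 of 9 at each time, beside 3258 and 2488 of the 17835 genes. DESeq2 called Chrng, Dok7 and Lrp4 higher at each time, beside 5.84% of all genes with an adjusted p called at 0 h and 5.03% at 24 h. All 9 estimates lay above 0 at both times, with a median of 0.53 at 0 h and 0.77 at 24 h on the log2 scale, against -0.03 and 0.02 over all genes.

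Chrng was at 1.85 and 3.09 CPM in the vector line and at 11.5 and 32.4 CPM in SMYD3 CL5 at 0 h, without overlap (log2 3.14 ± 0.615, adjusted p = 0.0373). At 24 h it was at 7.94 and 18.5 CPM and at 49.8 and 58.3 CPM (log2 2.03 ± 0.576, adjusted p = 0.133). Leaving out the lower SMYD3 CL5 library at 0 h gave 3.76 at 0 h (adjusted p = 0.00204), where the lone library was assumed to vary like the other groups. With the study's replicate number as a block Chrng also passed at 0 h (log2 3.05, adjusted p = 0.00535). Dok7 was at 2.32 and 3.14 CPM against 5.22 and 9.37 CPM at 0 h (log2 1.41 ± 0.377, adjusted p = 0.0971). At 24 h it was at 3.13 and 3.93 CPM against 16.1 and 11.7 CPM (log2 1.98 ± 0.378, adjusted p = 0.0375). It passed at 24 h without either SMYD3 CL5 library at 0 h (adjusted p = 0.00319 and 0.00377), and at 0 h without the lower of them (log2 1.83, adjusted p = 0.00517). Lrp4 was at 48.1 and 26.1 CPM against 178 and 80.5 CPM at 0 h (log2 1.8 ± 0.452, adjusted p = 0.0804). At 24 h it was at 69.6 and 71 CPM against 270 and 184 CPM (log2 1.69 ± 0.449, adjusted p = 0.109). It passed at 0 h without the SMYD3 CL5 library that held 80.5 CPM (log2 2.29, adjusted p = 0.0076).

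Chrna1 was at 183 and 251 CPM against 365 and 469 CPM at 0 h and at 328 and 469 CPM against 558 and 788 CPM at 24 h, with the SMYD3 CL5 libraries above those of the vector at each time (log2 0.94 ± 0.316 and 0.76 ± 0.315, adjusted p = 0.174 and 0.343). Chrnd was at 8.1 and 13.5 CPM against 10.9 and 19 CPM at 0 h and at 22.6 and 36.2 CPM against 46.4 and 53.8 CPM at 24 h. Chrnb1 had the smaller differences of 0.36 ± 0.278 and 0.26 ± 0.277. Musk and Agrn varied widely between the SMYD3 CL5 libraries at 0 h, at 52.6 and 10 CPM for Musk and 112 and 59.5 CPM for Agrn. Rapsn was at 0.278 and 0.205 CPM at 0 h and at 0.391 and 0.737 CPM at 24 h in SMYD3 CL5, against 0.157 and 0.195 CPM and then 0.31 and 0.107 CPM in the vector line (log2 1.41 ± 0.649 at 24 h, adjusted p = 0.399).

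Between 0 h and 24 h none of the 9 genes was called within the vector line or within SMYD3 CL5. None was called in the difference of the 2 changes, where 0% of all genes were called in each of the 3 comparisons. At an unadjusted p under 0.05 the count of the 9 genes was 4, 2 and 0, and that of all genes 1256, 1137 and 312. DESeq2 called 1 of them, Chrng in the vector line, beside 0.755% of all genes with an adjusted p. In the vector line Chrng was 5.32-fold higher at 24 h (log2 2.41 ± 0.599, adjusted p = 0.429), Chrnd 2.72-fold and Chrna1 1.84-fold. In SMYD3 CL5 Chrnd was 3.36-fold higher (log2 1.75 ± 0.393, adjusted p = 0.401) and Chrng 2.46-fold. Per kb, Chrna1 was 77.2 and 93.7 times Chrng in the vector line and 13.7 and 30.1 times Chrng in SMYD3 CL5 at 0 h.

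**Figure D5:**
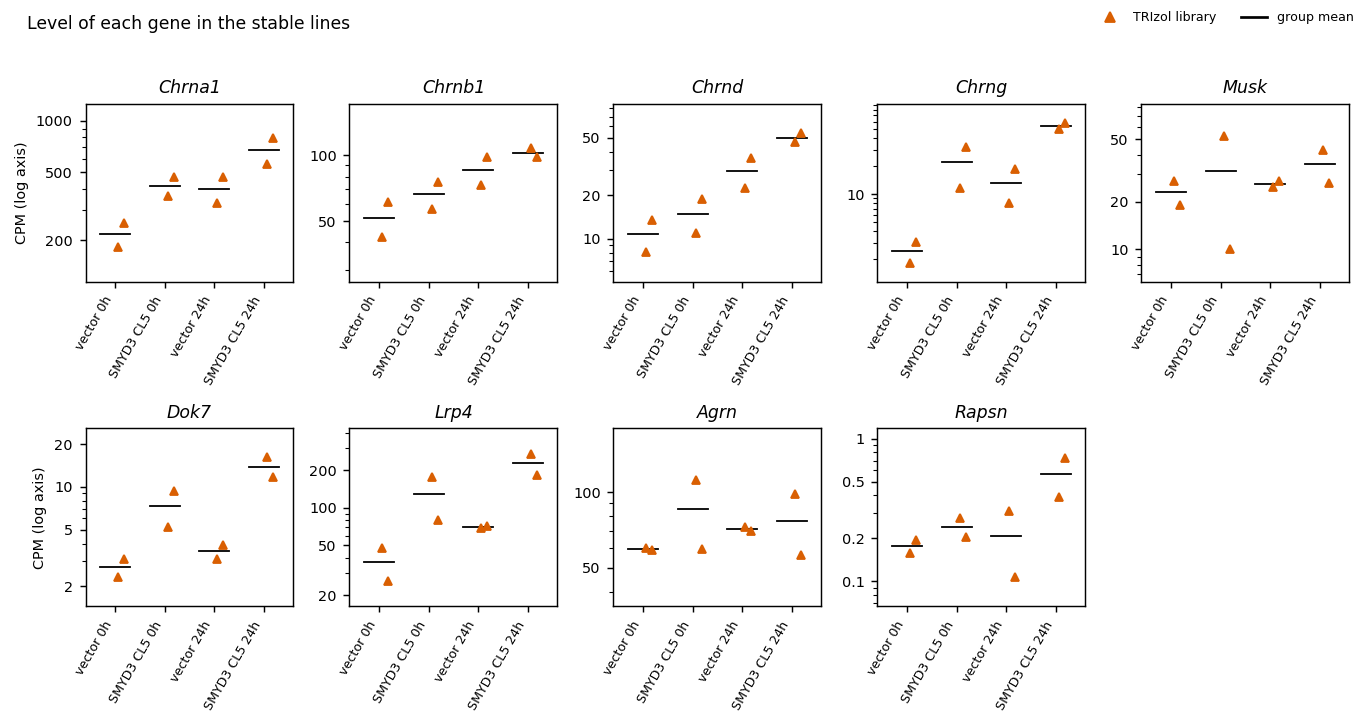
Level of the 9 tested genes in the 8 stable line libraries, in CPM on log axes, by line and time. Each triangle is a library, all extracted with TRIzol, and each line is the mean of 2 libraries. Chrng at 0 h is at 1.85 and 3.09 CPM in the vector line and at 11.5 and 32.4 CPM in SMYD3 CL5, and the 2 Musk libraries of SMYD3 CL5 at 0 h lie far apart, at 52.6 and 10 CPM.

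Genes that work with the receptor were counted in lists chosen with earlier results of these data known. Their counts stand beside 29.4% of all genes called with siCtrl between the times, 5.85% for siSMYD3#1 and 3.70% for siSMYD3#2 against siCtrl at 24 h. For SMYD3 CL5 against vector the share was 1.07% at 0 h and 0.964% at 24 h. An unadjusted p under 0.05 was given to 7755, 3815 and 3530 of 15820 genes in the first 3 comparisons and to 3258 and 2488 of 17835 in the others. Of 22 postsynaptic scaffold and basal lamina genes, 21 were tested, and 9 were higher and 0 lower at 24 h with siCtrl, beside 29.4% of all genes (median log2 0.33, against 0.03 over all genes). Scn4a, the muscle sodium channel, went from 0.0123 ± 0.0213 to 1.5 ± 0.694 CPM (SD, n = 3). Colq, the collagen tail of synaptic acetylcholinesterase, went from 0.0237 ± 0.0206 to 0.533 ± 0.344 CPM, with the 0 h libraries of both at 3 counts or fewer. Ache, the enzyme itself, went from 0.0605 ± 0.077 to 0.795 ± 0.628 CPM, but its groups overlapped. Its lowest 24 h library was at 0.0704 CPM, below the highest 0 h library at 0.147 CPM. In the siCtrl libraries at 24 h 3 counts came to at least 0.114 CPM, so that library was at the detection limit. The syntrophin Sntb1 went from 11.7 ± 7.21 to 40 ± 21.4 CPM (adjusted p = 6.72e-05). In the libraries labelled siSMYD3#1 5 of the 21 were lower and 0 higher at 24 h, beside 5.85% of all genes. The median log2 of the list was -0.01, against 0 over all genes. Among the lower ones were Sntb1 at 12.1 ± 4.76 CPM (log2 -1.61 ± 0.274, adjusted p = 0.00118), Sntb2 (log2 -0.64), Dtna (-0.54) and Syne1 (-0.53). With siSMYD3#2 and in SMYD3 CL5 at 0 h and 24 h 0 of 21 passed in edgeR, with 5, 7 and 6 at an unadjusted p under 0.05, and the medians were -0.04 for siSMYD3#2 and 0.04 and 0.06 for SMYD3 CL5 at 0 h and 24 h.

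Of 17 genes for transcription at synaptic nuclei 15 were tested, and 5 were higher and 4 lower at 24 h with siCtrl, beside 29.4% of all genes (median 0.09). Myog, a myogenic transcription factor, went from 1.05 ± 0.843 to 180 ± 110 CPM. Erbb3, a neuregulin receptor, went from 1.92 ± 1.29 to 13.7 ± 7.74 CPM. Hdac9 changed by log2 2.05 ± 0.362 and the ETS factor Etv4 by -1.14 ± 0.183. At 24 h Myog was at 14.2 ± 7.53 CPM in the libraries labelled siSMYD3#1 (log2 -3.59 ± 0.302, adjusted p = 5.4e-06) and at 41.7 ± 9.3 CPM with siSMYD3#2 (log2 -1.81 ± 0.281, adjusted p = 0.00125). Erbb3 was lower with both (log2 -2.39 ± 0.305 and -1.65 ± 0.299). Ets2 (0.84 ± 0.114) and the ligand Nrg1 (0.76 ± 0.166) were higher in the libraries labelled siSMYD3#1. The counts were 2 higher and 2 lower beside 5.85% of all genes (median -0.14) and, for siSMYD3#2, 0 and 2 beside 3.70% (median -0.26). In SMYD3 CL5 1 of the 15 was higher at 0 h and 0 at 24 h in edgeR, beside 1.07% and 0.964% of all genes, with 4 and 3 at an unadjusted p under 0.05.

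All 28 signalling and cytoskeletal partners of MuSK and rapsyn were tested, and 3 were higher and 3 lower at 24 h with siCtrl (median -0.03). These 6 of 28 stand beside 29.4% of all genes, so the list held no larger share of calls than all genes. Sorbs2 (log2 0.91 ± 0.175) and the kinase Fyn (0.75 ± 0.168) were among the higher ones, and the chaperone Hsp90aa1 was lower (-1.02 ± 0.0997). None of the 28 passed in edgeR with either siRNA or in SMYD3 CL5 at 0 h or 24 h, with 2, 7, 7 and 4 at an unadjusted p under 0.05 in that order. The medians ran from -0.23 to 0.03. Of 14 genes of receptor assembly, glycosylation and turnover 11 were tested in the siRNA fit. Lynx1, which binds nicotinic receptors, was higher (0.68 ± 0.121) while the chaperones Calr (-0.47 ± 0.105) and Canx (-0.36 ± 0.0797) were lower at 24 h with siCtrl, 3 of 11 beside 29.4% of all genes. The mannosyltransferase gene Alg2 was higher in the libraries labelled siSMYD3#1 (0.49 ± 0.101) and Lynx1 lower with siSMYD3#2 (-0.78 ± 0.123), 1 of 11 in each beside 5.85% and 3.70% of all genes. In the stable lines 0 of 12 passed for SMYD3 CL5 in edgeR, with 2 at 0 h and 1 at 24 h at an unadjusted p under 0.05. Of 16 other acetylcholine receptor genes, neuronal and muscarinic, 2 were tested and 0 passed in edgeR in any of these 5 comparisons, with 1 at an unadjusted p under 0.05 for SMYD3 CL5 at 24 h and 0 in the others.

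Muscle differentiation genes moved in the same comparisons. The study had already reported Myog, Mymk, Myl4, Tnni1 and Ryr1 as changed with SMYD3 in these RNA-Seq data. The counts of this list are therefore a description of the extent of differentiation and no independent test. Of 12 such genes, Myog among them again, 11 were tested in the siRNA fit and all 11 were higher at 24 h with siCtrl, beside 29.4% of all genes (median log2 6.86). Of these, 11 were lower in the libraries labelled siSMYD3#1, beside 5.85% of all genes (median -3.5), and 10 with siSMYD3#2, beside 3.70% (median -2.06). The summed level of the markers Myog, Myh3, Ckm, Acta1 and Mymk was 2.14 to 7.82 CPM at 0 h and 37.5 to 1170 CPM at 24 h in the siRNA libraries, and 2.32 to 409 CPM and 27.5 to 884 CPM in the stable lines. Myh3, embryonic myosin heavy chain, was at 221 ± 121 CPM with siCtrl at 24 h, 13.6 ± 6.43 CPM in the libraries labelled siSMYD3#1 and 34.4 ± 4.66 CPM with siSMYD3#2. In SMYD3 CL5 2 of 12 were higher at 0 h, beside 1.07% of all genes (median 4.98), and 1 at 24 h, beside 0.964% (median 4.39). At an unadjusted p under 0.05 the counts were 11 and 12, beside 3258 and 2488 of 17835 genes. The 1 called at 24 h was Ryr1, the calcium release channel (log2 4 ± 0.38, adjusted p = 0.00286). The part of the extent of differentiation in the values of the receptor and clustering genes was not tested.

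As a description, the genes with the most similar profile over the 18 siRNA libraries were found by Pearson's r of log2 CPM. The libraries share treatment and time. Before this, 1 extraction effect, the same at both times, was removed. The gap between extraction methods differed between the times for Chrna1, Chrnb1, Chrnd, Dok7 and Musk, and that difference stayed in the profiles. Its part in r was not tested. Chrng ran closest to Mylpf, a fast myosin light chain, to the pseudogene Mylf-ps, whose reads may not be separable from those of a parent gene, and to Mymk, which encodes the fusion protein myomaker (r = 0.992 for each). Chrnd and Chrna1 both had Actn3 and Trim55, of the sarcomere, among their closest 3 (r = 0.978 and 0.976 for Chrnd, 0.954 and 0.953 for Chrna1). Lrp4 ran closest to Svil (r = 0.986), Chrnb1 to Bhlhe41 (0.966), Dok7 to St8sia2 (0.91), Agrn to Tmem94 (0.911) and Musk to Hs2st1 (0.834). Among the 8 genes themselves, r was 0.96 for Chrng with Lrp4 and 0.95 for Chrna1 with Chrnd, whereas Agrn with Dok7 had r = -0.47.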

How the data were processed

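RNA-Seq of 26 C2C12 libraries was used. The authors deposited 1 table of raw read counts per gene for each library. FastQC 0.11.5, HISAT2 2.1.0, featureCounts of Subread 1.6.3 and GRCm38 are named in the submitters' processing notes, and the strand setting of the counting is not given in the sources used here. Ensembl identifiers were mapped to symbols with GENCODE M21, which matched 54495 of 55341 genes, and 846 were not matched. Total counts per library ran from 14315193 to 67853386.

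Counts were tested in R 4.3.3 with edgeR 4.0.16 (filterByExpr, TMM scaling, robust quasi-likelihood test). The 18 siRNA libraries were fitted with 6 groups and an extraction term (15820 genes tested), and the 8 stable line libraries with 4 groups (17835 genes tested). P-values were adjusted over all genes by Benjamini-Hochberg, and a gene was called at an adjusted p under 0.01. Errors of fold changes are standard errors. DESeq2 1.42.0 and the other settings named in the closing section were alternatives, and an extraction term per time and the comparison of extraction methods were added after the data were seen. Profiles were compared on log2 CPM (prior count 2) after 1 extraction effect, the same at both times, was removed with limma 3.58.1. The scripts were tested on simulated data.

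The genes and lists were chosen with earlier results of these data known. Named genes were the 10 genes, Smyd3, up to 4 called genes of largest change per list and comparison, and the 3 genes of most similar profile. A gene that this rule names is not reported here. Cell type markers for muscle, Schwann cells, motor neurons, macrophages, endothelium, adipocytes and osteoblasts were taken from general knowledge.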

Additional observations from a re-analysis of the deposited data

Results flagged for a closer look

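A test of the difference between groups singled out 7 values. The rise of Chrng from 0 h to 24 h differed between the libraries labelled siSMYD3#1 and siCtrl, with a log2 difference of -2.07. Chrng also differed between siSMYD3#1 and siSMYD3#2 at 24 h, with a log2 difference of -0.71. The other 5 came from the gap between TRIzol and NucleoSpin, which was compared between 24 h and 0 h. On the log2 scale the gap at 24 h minus that at 0 h was 2.16 for Dok7, 1.59 for Chrnd, 1.13 for Chrna1, 1.05 for Chrnb1 and 0.48 for Musk.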

How the results depend on the processing

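Shares of all genes called were given above for the extraction effect per time, DESeq2 in the stable lines and NucleoSpin libraries against siCtrl. No share is given for the other settings of this section, so their counts cannot be set beside all genes. Counts of called genes among the 10 moved by more than 1.5 times under these settings. At an adjusted p under 0.05 they were 3 for siSMYD3#1 and 2 for siSMYD3#2 against siCtrl at 24 h, and 1 for SMYD3 CL5 against vector at 0 h and 1 at 24 h. DESeq2 gave 3 and 2 for the siRNAs, 1 for the vector line between the times, and 3 and 3 for SMYD3 CL5 against vector. Without the filter on low counts they were 6 for siSMYD3#1 (5 higher, 1 lower) and 5 for siSMYD3#2 between the times, 6 and 5 against siCtrl at 24 h, 3 between the siRNAs, 5 and 4 for the difference in rise, 2 for the vector line and 1 for SMYD3 CL5 between the times, and 3 and 3 for SMYD3 CL5 against vector. All 26 libraries in 1 fit gave 2 and 0 against siCtrl at 24 h, 0 between the siRNAs, 0 for the siSMYD3#1 rise, 1 for the vector line between the times, and 2 and 2 for SMYD3 CL5 against vector. Without the extraction term they were 2, 1 and 1 between the times for siCtrl, siSMYD3#1 and siSMYD3#2, 0 and 0 against siCtrl at 24 h, 0 between the siRNAs and 0 for the siSMYD3#1 rise. NucleoSpin libraries alone gave 7 (6 lower, 1 higher) and 5 against siCtrl at 24 h, 2 between the siRNAs (1 higher, 1 lower), and 2 and 4 for the rise. An extraction effect per time gave 6 and 5 between the times, 6 and 5 against siCtrl at 24 h, 3 between the siRNAs, and 4 and 2 for the rise. Other size factors moved no count this far. In edgeR the median prior degrees of freedom, the weight of the spread shared over genes, were 7.32 in the siRNA fit with the filter. They were 3.47 in the stable line fit with the filter, and infinite in both fits without it. The part of this in the calls gained without the filter was not tested. Apart from settings whose construction changes the libraries or genes fitted, the cause was not tested.

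Leaving out 1 library gave 2 to 5 calls for siCtrl between the times, 2 to 3 for siSMYD3#1, 2 to 2 for siSMYD3#2, 1 to 3 for each siRNA against siCtrl at 24 h, 0 to 1 between the siRNAs, 1 to 1 and 0 to 1 for the rises, 5 to 7 between extraction methods, and 0 to 2 at 0 h and 0 to 1 at 24 h for SMYD3 CL5 against vector. Every other comparison gave 0 to 0. Among 1014 values of single genes under the other alternatives 891 kept their side of the threshold and direction, 14 lost a call, 109 gained one and 0 reversed a call. Leaving out 1 library gave 1888, 37, 19 and 0 of 1944.

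The replicate block used the study's own numbers, since the labels give none. To see whether same-numbered libraries deviate together, the deviation of each library from its group mean was correlated over all tested genes between 2 groups. For the siRNA libraries r was 0.366 to 0.851. The difference between the 2 NucleoSpin libraries alone correlated at -0.041 to 0.177. In the stable lines r was 0.483 between the times of SMYD3 CL5 and -0.097 to 0.145 in the other pairs of groups. The main fits did not take the numbers as pairs, and this includes the comparison of times within SMYD3 CL5. The block gave 1 call for SMYD3 CL5 against vector at 0 h, ended the Agrn call of siSMYD3#1 between the times (log2 0.40, adjusted p = 0.0118, edgeR) and moved no other count by more than 1.5 times. Depth limits Chrne and Rapsn, whose counts were at most 4 in the siRNA libraries.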
